A study of Mus musculus with 2 samples.

Results

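Mature regulatory dendritic cells (mature regulatory DCs) were studied in single-cell RNA-seq data of mouse MC38 colon tumors. Cells were chosen by their own counts of unique molecular identifiers (UMIs, counted RNA molecules). A barcode had to hold at least 1 UMI of Ccr7 and at least 2 UMIs of Ccl22 and Fscn1 together. No UMI of Cd3d, Cd3e or Cd3g was allowed, Ptprc, Tyrobp and Fcer1g had to make up at least 0.03% of the UMIs, and C1qa, C1qb and C1qc had to stay under 0.1%. Of 28002 kept barcodes, 99 met this rule, 84 from untreated and 15 from MSA-2-treated tumors.

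The study asked how tumors respond to MSA-2, a small-molecule agonist of the DNA-sensing adaptor STING. C57BL/6 mice, aged 6 to 8 weeks by the study's methods, carried subcutaneous MC38 tumors and received 3 injections into the tumor, 3 days apart, of MSA-2 or of vehicle (saline with 10% DMSO), and the vehicle group is the one the labels call untreated. Tumor cells were taken on day 7. Tumors of 3 mice were pooled in each group, which gave 1 untreated and 1 MSA-2 library. With a single library per group, variation from tumor to tumor cannot be measured and the groups were not tested against each other. A range in brackets after a share, ratio or CPM value is an exact 95% interval that covers counting error only. Ranges in brackets after a number of cells run from the lowest to the highest cell.

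Barcodes were kept when they had 500 genes or more and mitochondrial UMIs did not exceed 20%. The untreated library held 14039 barcodes with 197677764 UMIs (median 8775 per barcode) and the MSA-2 library 13963 barcodes with 203718059 UMIs (median 9706). The 84 untreated members held 741548 UMIs and the 15 MSA-2 members 182848. Because most members are untreated, the expression program was described in the untreated library, and MSA-2 members are given as counts.

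Conventional dendritic cells take up antigen in tissue and, on maturation, switch on the chemokine receptor CCR7, which guides them toward lymph nodes. The mature regulatory state can be reached by type 1 (cDC1) and type 2 (cDC2) conventional dendritic cells. It joins costimulatory molecules and IL-12 with inhibitory ligands such as PD-L1 and with the chemokines CCL17 and CCL22, which attract CCR4-bearing T cells, regulatory T cells among them.

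The rule was applied stepwise. In the untreated library 698 barcodes held a Ccr7 UMI, 277 of these passed the Ccl22 and Fscn1 condition, 225 had no Cd3 UMI, 98 passed the leukocyte condition and 84 the C1q limit. The same steps left 153, 69, 65, 16 and 15 MSA-2 barcodes. Just inside the thresholds, 11 untreated members and 1 MSA-2 member had exactly 2 UMIs of Ccl22 and Fscn1 together, and 13 and 5 had exactly 1 Ccr7 UMI. C1q genes made up 0.05% to 0.1% of UMIs in 17 and 1. Just outside, 16 untreated and 4 MSA-2 barcodes failed only by holding 1 UMI of Ccl22 and Fscn1, and 2 and 1 failed only by a C1q share between 0.1% and 0.2%. Another 168 and 255 barcodes failed only by holding no Ccr7 UMI, of which 16 and 4 held a Ccl22 UMI. No member's barcode was among the 53 barcode sequences that occur in both libraries.

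Members were 0.598% (0.478% to 0.740%) of untreated barcodes and 0.107% (0.0601% to 0.177%) of MSA-2 barcodes, a log2 ratio of -2.48 (-3.38 to -1.67). Counted over barcodes that passed the leukocyte condition, 7202 and 5969, members made up 1.17% and 0.251%, a log2 ratio of -2.21 (-3.11 to -1.41). Counted over C1q macrophages, 4074 and 1524, they made up 2.06% and 0.984%, a log2 ratio of -1.07 (-1.97 to -0.26). In each of these denominators the mature regulatory DC share was lower in the MSA-2 library. Over the 3 dendritic gates together the ratio turned to 0.71 (-0.19 to 1.52), since the other 2 dendritic gates held 1 and 0 MSA-2 cells against 37 and 26 untreated cells. Without replicates, treatment and library cannot be told apart in these shares.

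Not all 99 members were alike. A level of 0.02% of UMIs for Ccr7 and Ccl22 together, chosen after the values had been seen, falls in a gap in both libraries. In the untreated library 76 members lay above it, between 0.0329% and 0.666%, and 8 below it, between 0.00233% and 0.00798%. In the MSA-2 library 10 lay above (0.0880% to 0.796%) and 5 below (0.00228% to 0.00535%). The barcodes below were deep, with a median of 29807 UMIs against 6028 in untreated members above the level, and 25525 against 3858 in MSA-2 members. They held 30.6% of the UMIs of all untreated members and 76.4% of those of all MSA-2 members. The 8 deep untreated members held no Ccl22 UMI, 9 Ccr7 UMIs and 34 Fscn1 UMIs.

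The deep members also carried RNA of the leukocyte-low barcodes, which are those with under 0.03% leukocyte gene UMIs and no Cd3 UMI. The 50 genes that set leukocyte-low barcodes apart from immune cells most made up a median of 1.201% of UMIs in the 8 deep untreated members and 1.08% in the 5 deep MSA-2 members, with lowest values of 0.981% and 0.972%. In members above the level the medians were 0.134% and 0.172% and the highest values 0.348% and 0.275%. Leukocyte-low barcodes themselves had medians of 1.37% and 1.33%. Scrublet called 4 of the 8 and 3 of the 5 deep members doublets, against 1 of the 76 and 0 of the 10 above the level, and 5.02% and 4.08% of all kept barcodes. Whether the deep barcodes are doublets, carry free RNA or are single cells was not tested. Values are given below for all 84 untreated members, and for the 76 beside list medians and main genes. Above the level alone, the log2 ratio of member shares was -2.92 (-4.04 to -1.96).

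**Figure D1:**
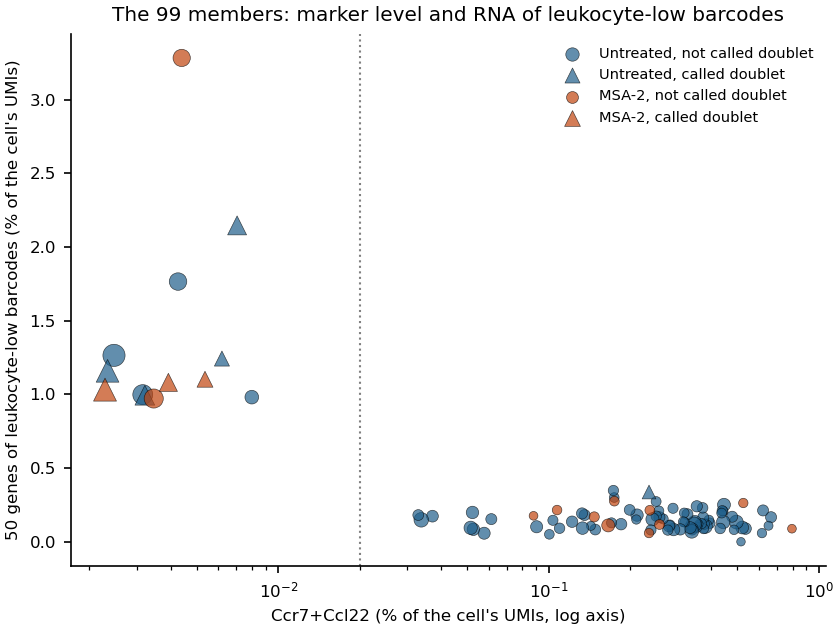
Share of Ccr7 and Ccl22 UMIs (x axis, log scale) against the share of 50 leukocyte-low genes (y axis) in each of the 99 members, with point size growing with depth, triangles for called doublets and a dotted line at 0.02%. The 8 untreated and 5 MSA-2 members to the left of the line all sit at or above 0.972% on the y axis, and those to the right at or under 0.348%.

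The label was compared with markers that the rule did not use. Their list was chosen with earlier results of these data known, so this is no independent check. Of 22 further genes known to mark mature regulatory DCs, the 76 members held a median of 14 with a UMI, against 9 in the 8 deep members. Medians were 6 in cDC1 barcodes, 5 in cDC2 barcodes, 5 in C1q macrophages and 7 in leukocyte-low barcodes, although cDC1 and leukocyte-low barcodes were deeper (median 10062 and 18868.5 UMIs). Not every member reached this number, and 16 of the 76 held 9 or fewer of the markers and 8 held 6 or fewer, the median of cDC1 barcodes. Summed over the markers, the 8 deep members measured 3017 CPM, close to macrophages (2727 CPM) and leukocyte-low barcodes (2808 CPM), against 14374 CPM in the 76. By these markers most of the 76 members fit their name, a part of them is weakly marked, and the 8 deep members as a group do not stand apart from other cells.

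Members were compared within the untreated library with 37 cDC1 barcodes, chosen by Xcr1 and Clec9a, with 26 cDC2 barcodes, chosen by Cd209a, Mgl2 and Clec10a, and with 4074 C1q macrophages, chosen by C1qa, C1qb and C1qc. Their median depths were 10062, 5792.5 and 5600 UMIs, against 6498 in the 84 members. Members were set aside first, so the cDC1 and cDC2 gates hold no barcode that met the member rule. Some members held enough cDC1 or cDC2 genes to have been counted there otherwise. Part of the contrast in mature markers with these 2 gates therefore follows from the order of choice. UMIs of a gene were summed over the cells of a gate and divided by all UMIs of that gate (given as CPM, where 10 CPM is 0.001% of UMIs). Ratios are log2 of members over the other gate with 10 CPM added to both, which shrinks the ratio of rare genes. A gene with at least 10 UMIs in the 2 gates together is called measured, and higher or lower where the ratio reaches 2-fold. All gates of this comparison come from 1 library, so cell-to-cell and tumor-to-tumor spread is not in these ratios.

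Against cDC2 barcodes, 867 of 7729 measured genes (11.2%) were higher in members and 431 (5.58%) lower. The corresponding numbers against cDC1 barcodes were 811 (9.67%) and 500 (5.96%) of 8386 genes. C1q macrophages gave 510 (3.41%) higher and 648 (4.33%) lower genes of 14974. Median log2 ratios over all measured genes were 0.05, 0.03 and -0.06. The 8 deep members moved these counts. Without them, 736 genes were higher and 666 lower than in cDC2 barcodes, 672 and 712 than in cDC1 barcodes, and 695 and 1161 than in macrophages, with all-gene medians of -0.11, -0.14 and -0.14. More genes were thus called lower against each gate without them, while genes called higher were fewer against the dendritic gates and more against macrophages. Counts of higher and lower list genes below are for the 84 members, with the all-gene shares of each gate above as their background.

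The marker list outside the rule, chosen with earlier results of these data known, stood clear of this background. Of its 21 genes measured against cDC2 barcodes 18 were higher and none lower, with a median log2 ratio of 2.25 (2.69 without the deep members). Against cDC1 barcodes 19 of 21 were higher (median 2.63, 2.77 without), and against macrophages 18 of 22 (2.19, 2.62 without), again with none lower. Summed over the list, the 84 members reached 10897.5 CPM and the 76 members 14374 CPM, against 1988 in cDC2 barcodes, 1360 in cDC1 barcodes and 2727 in macrophages. Cacnb3, a calcium channel subunit, measured 247 CPM (212 to 285) in members against 5.85, 2.59 and 7.47 CPM in cDC2, cDC1 and macrophage barcodes. Samsn1, an adaptor protein, stood at 620 CPM against 123, 23.3 and 44.5. Tbc1d4, a Rab GTPase-activating protein of vesicle traffic, reached 910 CPM against 70.2, 189 and 18.2. Serpinb6b, a protease inhibitor, had log2 ratios of 4.19, 2.11 and 5.61 in the same order.

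**Figure D2:**
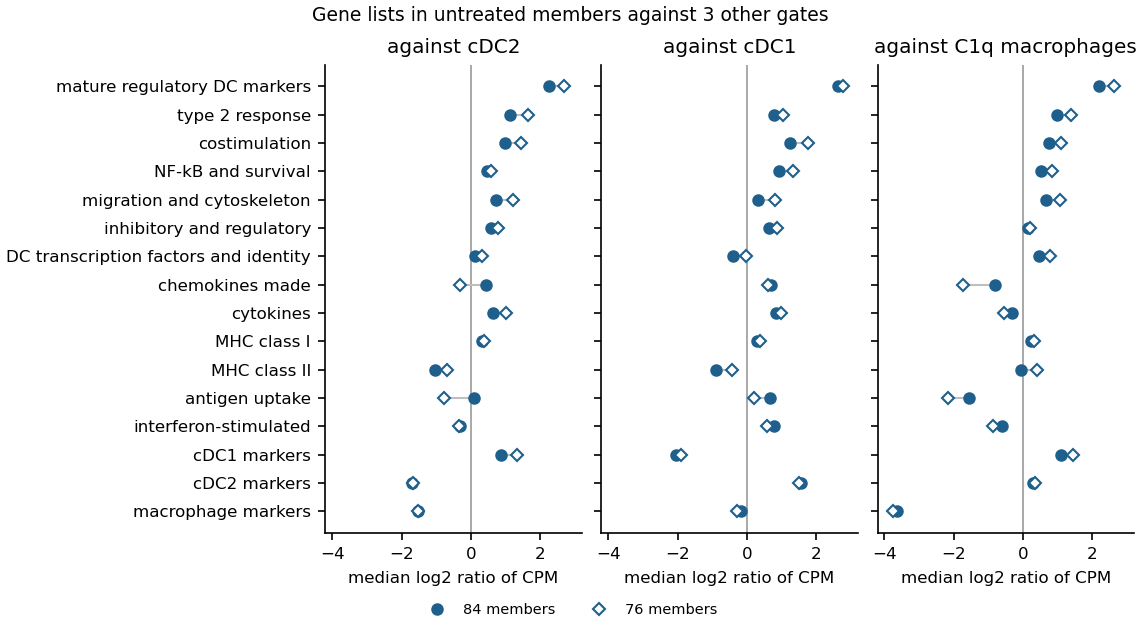
Median log2 ratio of CPM over the measured genes of each list, in untreated members against cDC2 barcodes, cDC1 barcodes and C1q macrophages, for 84 members (circles) and for the 76 above the marker level (diamonds). The mature regulatory DC markers lie at 2.25, 2.63 and 2.19, the MHC class II genes at -1.02, -0.90 and -0.07.

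Among the rule's own genes, given as a description only, Ccr7 measured 1138 CPM (1063 to 1218) in the 84 and 1623 CPM in the 76 members. Ccl22 measured 835 CPM (770 to 903) and 1203 CPM, and Fscn1, the actin-bundling protein fascin that shapes dendrites, 785 CPM (722 to 851) and 1065 CPM. Members were 0.598% of the untreated barcodes but held 36.6% of the library's Ccr7 UMIs and 63.7% (60.6% to 66.7%) of its Ccl22 UMIs. Fscn1 had 2.48% of its UMIs in members and measured 137 CPM in leukocyte-low barcodes. The rule used these genes, so their shares are no test of how well they mark these cells.

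To compare shares of cells, each barcode was thinned at random to 2000 UMIs, which left 74 of the 76 members, all 37 cDC1 and 26 cDC2 barcodes, and 5574 leukocyte-low barcodes. The last are mostly cells with RNA of their own, so a high share among them cannot tell free RNA from expression. They were also deeper, so after thinning a low share among them sets no limit on free RNA in members. Before thinning the median depths of members and leukocyte-low barcodes were 6028 and 18868.5 UMIs. A Ccl22 UMI was left in 50 of 74 members and in 0.179% of leukocyte-low barcodes, a Ccr7 UMI in 66 and 0.466%, and a Fscn1 UMI in 42 and 23.9%. Such counts change with the random draw, and a second draw left these UMIs in 54, 62 and 44 of 74 members. Without thinning, 72 of the 76 members held a Ccl22 UMI and 54 a Fscn1 UMI.

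Several chemokines were abundant in members. Ccl5, which attracts T cells and NK cells, was the most abundant, at 4139.99 CPM (3995 to 4289) against 310 in cDC2 barcodes, 124 in cDC1 barcodes and 954 in macrophages. Its log2 ratios were 3.70, 4.95 and 2.11. After thinning, 57 of 74 members kept a Ccl5 UMI, while macrophages did so in 53.3% and leukocyte-low barcodes in 20.8%. Ccl5 UMIs were thus also found in other barcodes, and the part of free RNA in these shares was not tested. Only 3.56% of the library's Ccl5 UMIs were in members.

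Ccl17, the second CCR4 ligand, measured 757 CPM (695 to 822) against 339, 166 and 11.2, with log2 ratios of 1.13, 2.12 and 5.18. Members held 35.2% of the library's Ccl17 UMIs. The gene was not part of the rule. It was also detected in cDC2 barcodes, of which 9 of 26 kept a Ccl17 UMI after thinning, against 37 of 74 members and 0.251% of leukocyte-low barcodes. Cxcl16, a membrane-bound ligand of CXCR6 on effector T cells, was present in 74 of the 76 members at 863 CPM, with log2 ratios of 0.73, 0.31 and 0.13 in the 84. Ccl19, a ligand of CCR7 itself, and Ccl20 had no UMI in the 84 members, which allows up to 3.

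Ccl4, Ccl3 and Cxcl2 were lower than in macrophages. Ccl4 stood at 1255 CPM against 6417 in macrophages (log2 ratio -2.34) and Ccl3 at 90.4 against 1402 (-3.81), both attractants of leukocytes to inflamed tissue. The neutrophil attractant Cxcl2 measured 150 CPM (123 to 180) against 1899.8 (-3.58). Of the chemokine genes outside the rule, 2 of 15 were higher and 2 lower than in cDC2 barcodes (median 0.43, -0.32 without the deep members). Against cDC1 barcodes 5 of 15 were higher and none lower (0.70, 0.62 without), and against macrophages 2 of 19 were higher and 9 lower (-0.80, -1.72 without). The direction of the median against cDC2 barcodes therefore depended on the 8 deep members. The ligands of CXCR3 on T cells, Cxcl9 and Cxcl10, measured 452 and 1254 CPM. Leukocyte-low barcodes reached 202 and 2542 CPM of these genes, and the part of RNA from other cells in the members' values was not tested.

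Il12b, the p40 chain shared by IL-12 and IL-23, was the clearest cytokine. It measured 1574 CPM (1485 to 1667) in the 84 and 2268 CPM in the 76 members, against 0 UMIs in cDC2 barcodes, 231 CPM in cDC1 barcodes and 16.6 CPM in macrophages. On the scale with 10 CPM added the log2 ratios were 7.31, 2.72 and 5.90. The 84 cells held 55.2% (53.0% to 57.3%) of all Il12b UMIs of the untreated library. After thinning, 33 of 74 members kept an Il12b UMI, against 5 of 37 cDC1, none of 26 cDC2 and 0.233% of leukocyte-low barcodes. Without thinning 39 of the 76 members held one, and none of the 8 deep members did. The partner chains were not detected. Il12a, which completes IL-12, and Il23a, which completes IL-23, had no UMI in the 84 members, which allows 3 UMIs of 741548, and only 1 and 29 UMIs in the 4074 macrophages.

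Among other cytokines, Il1b was present at 1068 CPM, below cDC2 barcodes (2146) and macrophages (1895) and above cDC1 barcodes (648). Tnf measured 90.4 CPM against 251 in macrophages (-1.38), Ebi3, a chain of IL-27 and IL-35, 29.7 CPM, and Il15, a survival factor for T and NK cells, 33.7 CPM. The regulatory cytokine Il10 and the alarmins Il1a and Tslp had no UMI in the 84. Ifnb1, the only type I interferon gene of 5 measured against the dendritic gates, had 20 UMIs in 6 cells. Over the cytokine list 3 of 12 measured genes were higher and 2 lower than in cDC2 barcodes (median 0.65, 1.01 without the deep members), 5 of 12 higher and none lower than in cDC1 barcodes (0.83, 0.98 without), and 3 of 18 higher and 4 lower than in macrophages (-0.31, -0.53 without). The called cytokines were thus all higher than in cDC1 barcodes and mixed against the other gates.

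Promoters are shown for Ccl22 and Fscn1, which the rule used, and for Ccl17 and Il12b, 2 secreted factors high in these cells outside the rule, as 250 bases before the RefSeq start on the GRCm38.p6 build, all on the plus strand. Ccl22 and Ccl17 both lie on chromosome 8, 58753 bases apart, while Il12b lies on chromosome 11 and Fscn1 on chromosome 5. The windows are chr8:94745434-94745683 for Ccl22, chr8:94810203-94810452 for Ccl17, chr11:44399813-44400062 for Il12b and chr5:142960105-142960354 for Fscn1. Capitals mark a simple NF-kB-type motif on either strand, 3 Gs, then 5 bases of any kind, then 2 Cs. The motif occurs in 45.8% of the 32851 windows of all promoters, so a match is common. In the Ccl22 window the matches start 162 and 131 bases before the start, both on the minus strand, and in the Fscn1 window 59 and 20 bases before it on the plus strand.
Ccl22: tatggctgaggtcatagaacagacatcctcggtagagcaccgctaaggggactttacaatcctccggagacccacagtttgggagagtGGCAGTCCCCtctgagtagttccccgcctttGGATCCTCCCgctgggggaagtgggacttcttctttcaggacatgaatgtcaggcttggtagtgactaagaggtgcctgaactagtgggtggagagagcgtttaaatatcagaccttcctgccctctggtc
Ccl17: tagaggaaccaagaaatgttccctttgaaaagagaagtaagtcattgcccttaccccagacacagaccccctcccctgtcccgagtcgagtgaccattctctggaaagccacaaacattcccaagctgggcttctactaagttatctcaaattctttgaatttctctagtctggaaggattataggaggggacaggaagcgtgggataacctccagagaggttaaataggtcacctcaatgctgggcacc
Il12b: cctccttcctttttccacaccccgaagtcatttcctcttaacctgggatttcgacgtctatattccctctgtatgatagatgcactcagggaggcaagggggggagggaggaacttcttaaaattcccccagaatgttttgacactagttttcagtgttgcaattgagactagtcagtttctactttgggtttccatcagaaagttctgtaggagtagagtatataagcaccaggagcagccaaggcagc
Fscn1: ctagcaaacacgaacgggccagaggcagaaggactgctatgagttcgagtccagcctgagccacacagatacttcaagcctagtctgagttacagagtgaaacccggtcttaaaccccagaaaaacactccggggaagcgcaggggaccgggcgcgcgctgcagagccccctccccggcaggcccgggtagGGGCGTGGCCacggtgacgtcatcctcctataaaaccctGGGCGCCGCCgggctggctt

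A match describes letters and is not a binding site, and the windows of Ccl17 and Il12b hold no such letters. Of the 25 mature regulatory DC marker genes, 17 had a RefSeq window and 12 of these (70.6%) held the motif, against 48.7% of all 27025 genes. Lists of other kinds were as high, such as migration (76.9%), metabolism (69.2%), MHC class I (68.8%) and endothelial markers (5 of 6), so the share is not particular to these markers. The table used has no entry for Ccr7.

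Several genes of migration and the cytoskeleton were high together with Ccr7. The actin regulators Marcks and Marcksl1 measured 585 and 326 CPM, with log2 ratios over cDC2, cDC1 and macrophage barcodes of 2.04, 1.26 and 0.80 for Marcks and 1.55, 3.34 and 1.39 for Marcksl1. Swap70, which links phosphoinositide signals to actin, had ratios of 2.07 and 2.33 over cDC2 and cDC1 barcodes. Myo1g, a class I myosin of leukocytes, had 1.53, 1.25 and 2.47. Icam1, the adhesion ligand of LFA-1 on T cells, measured 115 CPM, with ratios of 1.90, 1.80 and 1.33.

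The receptors Ccr2 and Ccr1 went the other way against cDC2 barcodes. Ccr2, the receptor that brings monocytes and cDC2 precursors into tissue, had 5 UMIs in the 84 members (6.74 CPM, 2.19 to 15.7) against 152 CPM in cDC2 barcodes, a log2 ratio of -3.27. Ccr1 measured 25.6 CPM against 117 in cDC2 barcodes (-1.83). Over the whole list outside the rule 7 of 17 genes were higher and 4 lower than in cDC2 barcodes (median 0.73, 1.23 without the deep members), 7 and 3 of 17 against cDC1 barcodes (0.31, 0.81 without), and 7 and 5 of 18 against macrophages (0.66, 1.08 without). The members thus held less RNA of these 2 inflammatory chemokine receptors than cDC2 barcodes. Their Ccr7 is no finding beside this, since the rule required it.

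Costimulatory ligands were higher in part. Cd80, the B7 ligand of CD28 and CTLA-4, measured 336 CPM (295 to 380) against 129, 135 and 39.8 in cDC2, cDC1 and macrophage barcodes, with ratios of 1.32, 1.26 and 2.80. Cd86, the second B7 ligand, measured 657 CPM against 772, 585 and 650, so its level was close to that of the other gates (-0.23, 0.16 and 0.01). Cd40, which receives help from CD4 T cells, stood at 109 CPM with ratios of 2.11, 2.22 and 1.63. Cd83, which stabilizes surface MHC class II and CD86, was above cDC2 barcodes (1.11) and close to cDC1 barcodes (-0.08). Before thinning 60 of the 76 members held a Cd80 UMI and 71 a Cd86 UMI, and after it 39 and 55 of 74, against 0.502% and 2.76% of leukocyte-low barcodes.

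TNF-family ligands were detected at lower levels. Cd70, the ligand of CD27 on T cells, had 53 UMIs in 19 members (71.5 CPM, 53.5 to 93.5) and none in cDC1 and cDC2 barcodes, while macrophages reached 0.460 CPM. Members held 34.0% of the library's Cd70 UMIs and T cell barcodes 31.4%. Tnfsf4 (OX40 ligand) measured 44.5 CPM, with log2 ratios of 1.33, 2.45 and 2.26, and Tnfsf9 (4-1BB ligand) 82.3 CPM, with 0.86, 2.38 and 1.57. Icosl, the ligand of ICOS, was low at 12.1 CPM (-1.03 against cDC2 barcodes), and Tnfsf18 had no UMI. Over the list, 6 of 12 genes were higher and 1 lower than in cDC2 barcodes (median 0.98, 1.45 without the deep members), 6 of 11 higher than in cDC1 barcodes (1.26, 1.75 without) and 6 of 14 higher than in macrophages (0.75, 1.11 without), the last 2 with none lower.

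Some inhibitory and regulatory genes were high beside them. Cd274 (PD-L1), the ligand of PD-1, measured 719 CPM (659 to 782) in the 84 and 1011 CPM in the 76 members, against 421, 295 and 277. Its log2 ratios were 0.76, 1.26 and 1.35. After thinning 63 of 74 members kept a Cd274 UMI, against 7.77% of leukocyte-low barcodes, and 73 of 76 held one before thinning. Pdcd1lg2 (PD-L2), the second PD-1 ligand, measured 166 CPM with ratios of 1.79, 1.57 and 3.16, and members held 10.4% of its UMIs. In a second thinning draw 19 of 74 members kept UMIs of both ligands, 46 of Cd274 alone, 5 of Pdcd1lg2 alone and 4 of neither.

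Cd200, whose receptor restrains myeloid cells, measured 144 CPM with no UMI in cDC2 barcodes and 7.77 and 1.27 CPM in cDC1 barcodes and macrophages. Il4i1, a secreted amino acid oxidase that limits T cell proliferation, measured 186 CPM (156 to 220) against 29.2, 0 and 1.38, and members held 35.7% of its UMIs. Socs2, a feedback inhibitor of cytokine signaling, had ratios of 3.54, 3.60 and 3.44. Other regulators were not higher. Ido1, the tryptophan-degrading enzyme, had no UMI in the 84 members, and Havcr2 (TIM-3) was lower than in cDC1 barcodes (72.8 against 414 CPM, -2.36). Entpd1 (CD39) was lower than in cDC1 barcodes as well (-2.80). Over the list, 6 of 16 genes were higher and 1 lower than in cDC2 barcodes (median 0.58, 0.78 without the deep members), 7 and 3 of 17 against cDC1 barcodes (0.64, 0.86 without), and 8 and 6 of 23 against macrophages (0.15, 0.21 without). Over all measured genes 11.2%, 9.67% and 3.41% were higher and 5.58%, 5.96% and 4.33% lower, in the same order of gates. The regulatory genes of these cells were therefore a subset of the list, with Il4i1, Cd200, Socs2 and Pdcd1lg2 past 2-fold against each gate. In the 84 members Cd274 passed 2-fold against cDC1 barcodes and macrophages only. Without the deep members it passed 2-fold against cDC2 barcodes as well.

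Some NF-kB and survival genes were higher in members, while most of the list stayed within 2-fold in each comparison. Relb, the subunit of the alternative NF-kB pathway, measured 352 CPM (311 to 397) against 111, 101 and 89.0, with ratios of 1.58, 1.70 and 1.87. Traf1, an adaptor of TNF receptors, had ratios of 0.91, 1.29 and 2.88. The anti-apoptotic BCL2 relatives Bcl2a1b and Bcl2a1d measured 1846 and 651 CPM, although their sequences are near-identical and reads may be split between them. Rel (c-Rel) was above macrophages (1.64) and close to cDC2 barcodes (0.13), and Nfkb1 showed ratios of 0.07 over cDC2 barcodes and 0.55 over macrophages. Of 24 genes, 6 were higher and 1 lower than in cDC2 barcodes (median 0.47, 0.58 without the deep members), 10 higher than in cDC1 barcodes (0.93, 1.34 without) and 7 higher than in macrophages (0.51, 0.84 without), the last 2 with none lower. The list differed most from cDC1 barcodes.

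Genes tied to type 2 cytokine responses were also more often higher than lower. Outside the rule, 5 of 9 were higher than in cDC2 barcodes (median 1.13, 1.64 without the deep members), 4 of 9 than in cDC1 barcodes (0.79, 1.05 without) and 4 of 9 than in macrophages (0.97, 1.38 without), with none lower. Il2ra (CD25), the high-affinity chain of the IL-2 receptor, measured 105 CPM with ratios of 1.79, 3.19 and 3.14. Tnfrsf4 (OX40) measured 44.5 CPM, and Ccl17 and Il4i1, described above, belong to this list too. Crlf2, the receptor for TSLP, was not higher (48.5 CPM, -0.74, -0.45 and -0.72).

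Summed MHC class II RNA was lower than in both conventional dendritic gates. H2-Ab1, a class II chain, measured 3091 CPM (2966 to 3220) in the 84 and 4214 CPM in the 76 members, against 6842 in cDC2, 6789.7 in cDC1 and 3305 in macrophage barcodes. Cd74, the invariant chain, measured 6636 CPM against 12426, 12379.9 and 6943. The peptide-loading genes were lower still, with ratios over cDC2 and cDC1 barcodes of -1.78 and -1.75 for H2-DMa and -1.90 and -2.33 for H2-DMb1. Ciita, the master regulator of these genes, measured 28.3 CPM, with ratios of -1.17 and -1.47. March1, a ubiquitin ligase that removes class II from the surface, had 2 UMIs, against 18 in the 37 cDC1 barcodes and 4 in the 26 cDC2 barcodes.

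Of the class II list 6 of 12 genes were lower than in cDC2 barcodes and 6 of 13 lower than in cDC1 barcodes, with none higher and medians of -1.02 and -0.90. Without the 8 deep members these medians were -0.68 and -0.43. Against macrophages 3 genes were higher and 3 lower of 13 (median -0.07, 0.40 without). Summed over all members, class II RNA was thus below conventional dendritic cells, by less without the deep members. The sum hides a wide range among members, described below. MHC class I genes did not follow, with 1 of 18 higher than in cDC2 barcodes, 1 higher and 1 lower than in cDC1 barcodes and none beyond 2-fold against macrophages (medians 0.32, 0.29 and 0.24).

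Antigen uptake genes fell into opposite groups. Ly75 (DEC-205), an endocytic receptor of lymphoid-type dendritic cells, was high at 471 CPM (423 to 523) against 29.2, 127 and 9.81, with ratios of 3.61, 1.81 and 4.60. Lyz2, the lysozyme of phagocytes, measured 162 CPM against 3657 in macrophages (-4.42), and the mannose receptor Mrc1 8.09 CPM against 172 (-3.33). Ctss, the protease that trims the invariant chain, was lower than in cDC2 barcodes (418 against 1199 CPM) and macrophages (-2.30). Over the list outside the rule, which includes lectins used to choose the other gates, 4 of 19 were higher and 9 lower than in cDC2 barcodes (median 0.08, -0.78 without the deep members). Against cDC1 barcodes 7 and 3 of 18 were higher and lower (0.66, 0.21 without), and against macrophages 4 and 12 of 23 (-1.55, -2.16 without).

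The genes that define the conventional dendritic lineage were present. Flt3, the receptor for the growth factor of dendritic cells, measured 131 CPM (106 to 160) against 29.2 in cDC2, 127 in cDC1 and 0.885 in macrophage barcodes, and members held 22.6% of the library's Flt3 UMIs. Zbtb46, a transcription factor of conventional dendritic cells, had ratios of 1.85, 1.09 and 2.80. Irf8, which directs cDC1 development, measured 1059 CPM against 251 in cDC2 barcodes and 1515 in cDC1 barcodes (2.03 and -0.51). Batf3 (1.59 and -0.50) and Id2 (2.02 and 0.23), the other cDC1 regulators, showed the same order, with members near cDC1 and above cDC2 barcodes. Irf4, used by cDC2 cells, had 20 UMIs (27.0 CPM) against 46.8 CPM in cDC2 and 2.59 CPM in cDC1 barcodes. Over the list of transcription factors and identity genes, 6 of 20 were higher and 3 lower than in cDC2 barcodes (median 0.11, 0.31 without the deep members), 4 and 4 of 19 against cDC1 barcodes (-0.41, -0.04 without), and 8 and 1 of 20 against macrophages (0.46, 0.77 without).

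Most markers of each conventional subset were lower than in the gate of that subset. Against cDC1 barcodes 14 of 17 cDC1 markers were lower and none higher (median -2.04, -1.89 without the deep members), Xcr1 and Clec9a, which chose those barcodes, among them. Naaa, a lysosomal amidase of cDC1 cells, had a ratio of -3.34 and Rab7b -3.14. Against cDC2 barcodes 8 of 14 cDC2 markers were lower and 2 higher (median -1.71, -1.67 without), Cd209a (-4.69), Mgl2 (-2.84) and Clec10a (-2.64), which chose those barcodes, among them. The lower values of the genes that chose the gates were set by that choice, so these counts and medians, which include them, are a description only. Relative to the opposite subset the lists were not reduced, with no gene lower. Of the cDC1 markers, 6 of 13 were higher than in cDC2 barcodes (0.88). Of the cDC2 markers, 6 of 9 were higher than in cDC1 barcodes (1.55). Barcodes with at least 2 UMIs of Xcr1 and Clec9a had left for the cDC1 gate before cDC2 barcodes were chosen, while members could hold such UMIs. The comparison of cDC1 markers with cDC2 barcodes is thus in part set by the choice too. Against macrophages 8 of 16 cDC1 markers were higher and 1 lower (1.09), and 6 of 18 cDC2 markers higher and 4 lower (0.28).

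Further genes stood out by the size of their ratio, most of them outside the lists. Mreg, or melanoregulin, a regulator of lysosome-related organelles, measured 309 CPM (270 to 352) against 5.85, 0 and 1.03, and 41.0% of its UMIs in the library were in members. Serpinb9, the inhibitor of granzyme B, measured 534 CPM, with ratios of 4.65, 1.55 and 4.15. Scin, an actin-severing protein, had 4.31, 2.69 and 4.19, and Strip2 3.87, 2.11 and 4.32. Fabp5, a fatty acid carrier of the metabolic list, was abundant at 2290 CPM against 480, 109 and 606, although leukocyte-low barcodes held 702 CPM. Nr4a3, a nuclear receptor induced by activation and of the same list, measured 746 CPM with ratios of 1.14, 1.15 and 2.70. Il7r, the IL-7 receptor, had 71 UMIs in the 84 members and none in cDC1 barcodes.

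By the share of a gene's UMIs in the untreated library, members led with Apol7c (73.7%, 56.9% to 86.6%, from 28 UMIs in 10 cells), an apolipoprotein L gene. Ccl22 followed with 63.7%, a description only, since the rule used this gene. The unnamed transcript Gm13546 had 63.0%, Spock1 60.0% (24 UMIs in 4 cells), Il12b 55.2% and Dscaml1 52.5%. Mab21l3, Strip2 and Bcl2l14 held 48.9%, 46.1% and 45.3%. These shares describe where the RNA lies and depend on which other cells the library holds.

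**Figure D3:**
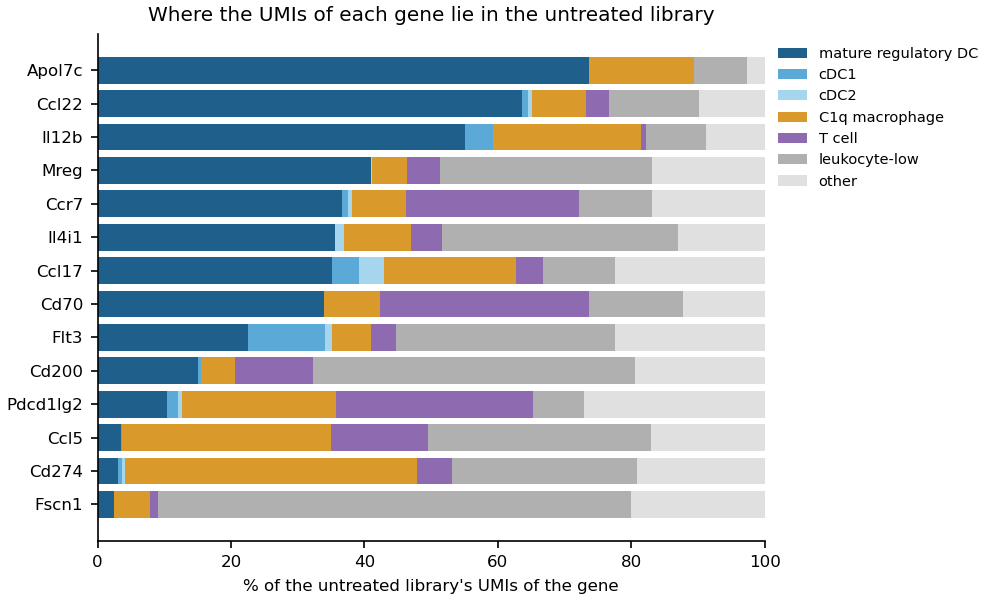
Share of the untreated library's UMIs of each gene (x axis, %) that lies in mature regulatory DCs, in the other gates and in the remaining barcodes, as stacked bars. Members, 0.598% of barcodes, hold 63.7% for Ccl22, 55.2% for Il12b and 36.6% for Ccr7 but 2.48% for Fscn1. Ccl22, Ccr7 and Fscn1 are genes of the rule.

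The lowest genes were those of the compared gate. Against cDC2 barcodes Ifitm6 (-3.47), Ccr2 and the elastase Mmp12 (-3.01) followed Cd209a. Against macrophages the complement gene C1qc (-5.56, a gene of the rule), Ms4a7 (-5.12) and Apoe (-4.92) were lowest, and all 12 macrophage markers outside the rule were lower (median -3.63). Of these macrophage markers 6 of 8 were lower than in cDC2 barcodes (-1.54), and 2 of 9 were higher than in cDC1 barcodes (-0.17). Monocyte markers were lower in 4 of 7 genes against cDC2 barcodes and 5 of 10 against macrophages, and higher in 4 and lower in 1 of 7 against cDC1 barcodes. The last median went from 1.23 to 0.16 without the deep members, and the sum from 1077 to 746 CPM, against 873 CPM in cDC1 barcodes.

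Interferon-stimulated genes of untreated members were close to cDC2 barcodes, higher than in cDC1 barcodes and lower than in macrophages. Of 42 genes, 2 were higher and 2 lower than in cDC2 barcodes (median -0.30, -0.34 without the deep members), 15 were higher and none lower than in cDC1 barcodes (0.78, 0.58 without), and 1 was higher and 11 lower than in macrophages (-0.60, -0.87 without). Of the STING pathway genes 1 of 6 was lower than in cDC2 barcodes, 1 of 7 than in cDC1 barcodes and 2 of 10 than in macrophages, with none higher. Tmem173, which encodes STING, measured 40.5 CPM (27.3 to 57.8) against 46.8, 38.9 and 44.3, close to the other gates. Toll-like receptor genes were sparse, with 2 of 6 lower than in cDC2 barcodes, 2 of 6 than in cDC1 barcodes and 7 of 17 than in macrophages, and none higher.

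Cell cycle genes were lower than in cDC1 barcodes, 6 of 10 of them with a median of -1.09 (-1.52 without the deep members) and none higher. Against cDC2 barcodes 2 of 10 were higher (median 0.80, 0.18 without the deep members), and none passed 2-fold against macrophages. Mki67, a marker of dividing cells, measured 51.2 CPM against 163 in cDC1 barcodes. Metabolic genes were close to the background, with 3 of 17 higher and none lower than in cDC2 barcodes, 3 and 1 of 17 against cDC1 barcodes, and 3 and 3 of 18 against macrophages.

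Markers of other cell types were counted in the untreated members. T cell markers summed to 35 UMIs (47.2 CPM) in the 84 and 15 UMIs (29.2 CPM) in the 76 members, with Cd8a the most abundant. Of the 15 genes 10 were at 0 in the 76, among them Cd3d, Cd3e and Cd3g, which the rule sets to 0, and Cd4, Foxp3 and Lck, which it does not use. T cell barcodes reached 4736 CPM. NK cell markers summed to 325 CPM in the 84 and 220 CPM in the 76, of which Klrk1 made up 92 of 113 UMIs, and Ncr1, Klrb1c, Gzma, Prf1 and Eomes were at 0. This sum was above cDC2 barcodes (146 CPM), cDC1 barcodes (174 CPM) and macrophages (98.7 CPM). B and plasma cell markers summed to 34 and 21 UMIs, led by Igkc, with Ms4a1 and Cd79a at 0 in the 76. T and B cell markers were thus rare in the 76 members, and the NK cell sum was mostly Klrk1.

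Myeloid markers were present at low levels. Macrophage markers outside the rule summed to 799 CPM in the 76 members against 21599 CPM in macrophages, with Apoe the most abundant and Pf4 at 0. Monocyte markers summed to 746 CPM, led by Plac8, and in the 84 to 1077 CPM, led by Fn1. Neutrophil markers summed to 157 CPM, of which Il1r2 made up 76 of 81 UMIs, and S100a8, S100a9, Retnlg, Csf3r, Cxcr2, Ly6g and G0s2 were at 0. Plasmacytoid markers summed to 433 CPM, led by Bst2, with Siglech, Ly6d and Klk1 at 0. Mast cell and basophil markers summed to 75.8 CPM, nearly all Kit.

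Stromal markers marked the deep members. Fibroblast markers summed to 1504 CPM in the 84 but 393 CPM in the 76, led by Col3a1 in both, against 4055 CPM in leukocyte-low barcodes. Their median ratio over cDC2 barcodes was 0.39 with and -1.03 without the deep members. Endothelial markers summed to 29.7 and 25.3 CPM, led by Pecam1, and tumor and epithelial markers to 10 and 7 UMIs, led by Epcam, with Krt8 and Krt18 at 0. The part of these cell types in the members' values was not tested beyond leaving out the 8 deep barcodes.

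The 76 untreated members varied widely in MHC class II. The UMIs of H2-Aa, H2-Ab1, H2-Eb1 and Cd74 made up 0.0515% to 5.79% of a member's RNA, with a median of 2.52%. Members were ordered by this share and divided into a low group (26 cells, 0.0515% to 0.835%), a middle group (25 cells, 0.975% to 3.38%) and a high group (25 cells, 3.39% to 5.79%), a division made after the values had been seen. Within 1.2 times of the boundary lay 4 cells at the lower and 21 cells at the upper cut. The upper cut thus runs through closely spaced cells, while no member lay between 0.835% and 0.975%. Whether the groups are separate types was not tested. Median depths were 5205.5, 5332 and 6766 UMIs.

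Most markers of the mature state were highest where class II was lowest. From the low to the middle and the high group, Ccl5 measured 13544, 3168 and 1834 CPM. Mreg measured 907, 339 and 156 CPM, Socs2 557, 207 and 32.3 CPM, and Cd200 441, 172 and 48.4 CPM. The 22 markers outside the rule summed to 26421, 11541 and 7033 CPM, and without Ccl5 to 12877, 8373 and 5199.7 CPM. Of the 22, 19 were highest in the low group and 17 were lower in each next group. Il4i1 (143, 407 and 237 CPM), Marcksl1 (382, 534 and 425 CPM) and Relb (531, 585 and 312 CPM) were highest in the middle group. Zbtb46 (285, 109 and 91.4 CPM) and Irf8 (2106, 1360.2 and 1038 CPM) were highest in the low group and lower in each next group. Fscn1 measured 2378, 844 and 183 CPM, a description only, since the rule used this gene.

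Other genes were high where class II was high. Besides H2-DMa (19.4, 166 and 586 CPM), which was not used for the order, Plac8 measured 45.4, 396 and 715 CPM. The interferon-induced gene Rsad2 (viperin) measured 130, 482 and 995 CPM, and Mgl2, a cDC2 lectin, 0, 28.7 and 247 CPM. Il1b was highest in the high group (868, 809 and 2382 CPM), as was Ccl4 (1141, 781 and 2989.7 CPM). The CCR4 ligands parted, with Ccl22 at 1426, 1314 and 914 CPM and Ccl17 at 512, 1383 and 1274 CPM. Cd86 (817, 1159 and 817 CPM) and Il12b (3195, 1641 and 2086 CPM) were not ordered, and Cd274 was lowest in the high group (1128, 1148 and 785 CPM). Depth was higher in the high group, and single cells can carry much of a sum. Some weakly marked members held much class II RNA, such as those with 4 of the 22 markers, with 45 H2-Ab1 UMIs of 5463 and 50 of 4817. Their part in the order of the markers was not tested.

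**Figure D4:**
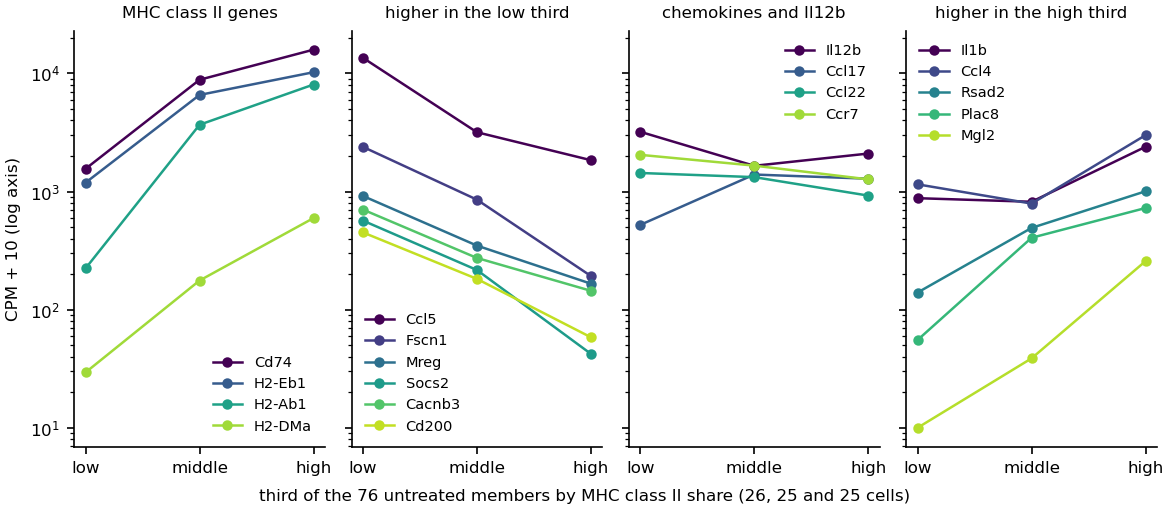
Summed CPM (plus 10, log axis) of selected genes in the low, middle and high group of the 76 untreated members ordered by MHC class II share. Mreg measures 907 CPM in the low and 156 CPM in the high group, and Plac8 45.4 and 715 CPM, while Fscn1 is a gene of the rule.

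In the second thinning draw, rank correlations over 74 cells of this 1 library were also taken. With the class II share they were -0.55 for Cacnb3, -0.51 for Ccl5, -0.49 for Mreg, -0.48 for Socs2 and -0.40 for Cd274, and 0.59 for H2-DMa, 0.42 for Plac8 and 0.41 for Il1b. For Fscn1, through which members without Ccl22 entered the rule, the value was -0.65. These cells share their pool of mice, their library and a fixed depth.

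Il12b was detected in part of the members. In the second draw 32 of 74 cells kept UMIs of both Il12b and Ccl22, 1 of Il12b alone, 22 of Ccl22 alone and 19 of neither, and their rank correlation was 0.59. Ccl22 was used to choose these cells, so this overlap is a description of the chosen cells only. For Il12b and Ccl17, neither of them in the rule, the counts were 22, 11, 15 and 26. Few cells carried most molecules, since 7 of 76 held 50% of the Il12b UMIs and 1 cell 161 UMIs (13.8%). For Ccl17, 6 cells held 50% of the UMIs, and for Ccl5 also 6, with 640 UMIs (21.5%) in 1 cell. The summed levels of these secreted factors thus rest on a minority of cells.

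Genes of the conventional subsets were detected in some members. In the second draw, at 2000 UMIs per cell, 9 of 74 members kept a UMI of Xcr1 or Clec9a, 11 a UMI of Cd209a, Mgl2 or Clec10a, none of both and 54 of neither. Leukocyte-low barcodes at this depth kept an Xcr1 UMI in 0.0538% and a Mgl2 UMI in 0.161%. Without thinning, 16 of 76 members held a UMI of the cDC1 genes and 14 of the cDC2 genes, 2 of them in both sets, and 48 held neither. These groups differ in depth, with medians of 9647, 6693 and 5004.5 UMIs, and in the number of the 22 mature markers detected, with medians of 11.5, 7.5 and 15. Whether the subset genes mark the cells' origin, a less mature state or added RNA was not tested.

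At equal depth the 54 cells without subset genes measured more Ccl5 (6806 CPM against 3833 with cDC1 genes and 2682 with cDC2 genes) and Mreg (611 CPM against 167 and 90.9). They measured less H2-Ab1 (2852 CPM against 6167 and 7636). Ccl17 did not follow (778 CPM against 1056 and 636), and Il12b measured 5444 CPM with cDC1 genes, 909 with cDC2 genes and 1574 without either. This Il12b value is unstable. Without thinning the 16 cells with cDC1 genes measured 3647 CPM, with 161 of their 604 UMIs in 1 cell, and the 9 cells with at least 2 UMIs of Xcr1 and Clec9a measured 2646 CPM. The groups with subset genes are small, and Mreg rests on 3 and 2 UMIs in them.

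The MSA-2 library gave 15 members, of which the 10 above the marker level held 43130 UMIs and are described as counts. They held 56 Ccr7, 47 Ccl22 and 76 Fscn1 UMIs, which the rule selected. Of the 22 markers outside the rule a median of 15 had a UMI per cell, and the list summed to 1934 UMIs, or 44841 CPM against 14374 CPM in the 76 untreated members. Ccl5 made up 1401 of these UMIs, and without it the sums were 12358 and 8577 CPM. Over all 15 MSA-2 and all 84 untreated members, the deep ones included, the list summed to 13295 and 10897.5 CPM. Apol7c and H2-M2 had no UMI in the 10 cells. Most markers of the list were thus detected in MSA-2 members, and most of the difference between the sums of the 10 and the 76 cells is Ccl5. Flt3 had 9 UMIs, Zbtb46 12 and Irf8 77, while Xcr1, Clec9a, Cd209a, Mgl2 and Clec10a had none, which allows up to 3 each.

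Ccl5 dominated these cells. It reached 1401 UMIs, or 32483 CPM (30804 to 34229.8), against 5798 CPM (5591 to 6009) in the untreated 76, and each of the 10 cells held between 36 and 390 UMIs. All 15 members, the deep ones included, held 1575 Ccl5 UMIs of 182848, and all 84 untreated members 3070 of 741548. Untreated members of the low class II group measured 13544 CPM. C1q macrophages of the MSA-2 library measured 5569 CPM and leukocyte-low barcodes 909 CPM. Ccl17 had 4 UMIs in 2 cells, 92.7 CPM (25.3 to 237) against 1083 CPM (994 to 1176). Il12b had 41 UMIs in 4 cells, 951 CPM (682 to 1289.6) against 2268 CPM. The CPM values of MSA-2 members describe 10 cells of 1 library. The intervals leave out variation between cells and tumors, and a difference between the groups was not tested.

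Summed over the list, RNA of interferon-stimulated genes was higher in the 10 MSA-2 than in the 76 untreated members, each from 1 library. The list summed to 985 UMIs, or 22838 CPM (21434 to 24309.9), against 8256 CPM (8010 to 8508), with 40 of 42 genes detected. Igtp and Iigp1 had no UMI in the 10 cells, while all 42 genes were detected in the 76. Per cell the list made up 1.34% to 4.62% of UMIs with a median of 2.20%, against 0.113% to 4.03% with a median of 0.563% in the 76 untreated members, so the ranges overlap. Isg15, a ubiquitin-like antiviral protein, had 125 UMIs (2898 CPM against 595), Rsad2 114 UMIs (2643 against 562) and Ifit1, a binder of viral RNA, 45 UMIs (1043 against 150). High values were found throughout the MSA-2 library, where the list summed to 34392 CPM in C1q macrophages, 20836 CPM in T cell barcodes and 14658 CPM in leukocyte-low barcodes. The members' level is thus not particular to them, and leukocyte-low barcodes measured 547 CPM of Isg15.

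MHC class II was low in most of them. The 4 genes summed to 293 UMIs (6793 CPM against 24490.4), and 1 cell with 4.06% of its RNA held 171 of these UMIs (58.4%). A share at or under 0.835%, the upper end of the untreated low group, was found in 8 of 10 MSA-2 and 26 of 76 untreated members. H2-Ab1 had 32 UMIs, 29 of them in that cell, and Cd74 109 UMIs (2527 CPM against 9195). C1q macrophages of the MSA-2 library measured 971 CPM of Cd74, so low class II RNA was not limited to these cells.

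Several checkpoint and costimulatory genes were detected in the 10 MSA-2 members. Cd48, Slamf1 and Tnfsf18 had no UMI, and Pdcd1lg2 had 9 UMIs in 4 cells. Cd274 had 77 UMIs in all 10 cells (1785 CPM, 1409 to 2231, against 1011), Cd86 121 UMIs (2805 CPM, 2328 to 3352, against 933), Cd80 36 and Cd83 28 UMIs. Cxcl2 had 220 UMIs (5101 CPM against 200), of which 97 and 116 lay in 2 cells. Neutrophil markers summed to 332 UMIs, led by S100a9 with 111, and 1 cell held 70.8% of them. S100a9 measured 955 CPM in C1q macrophages and 221 CPM in leukocyte-low barcodes of this library, and the part of neutrophil RNA in these values was not tested. T cell, endothelial and tumor and epithelial markers had no UMI in the 10 cells. With all 15 members, the deep ones included, the class II genes summed to 2002 CPM, the interferon list to 19579 CPM, neutrophil markers to 4304 CPM and fibroblast markers to 4222 CPM, the last led by Dcn.

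**Figure D5:**
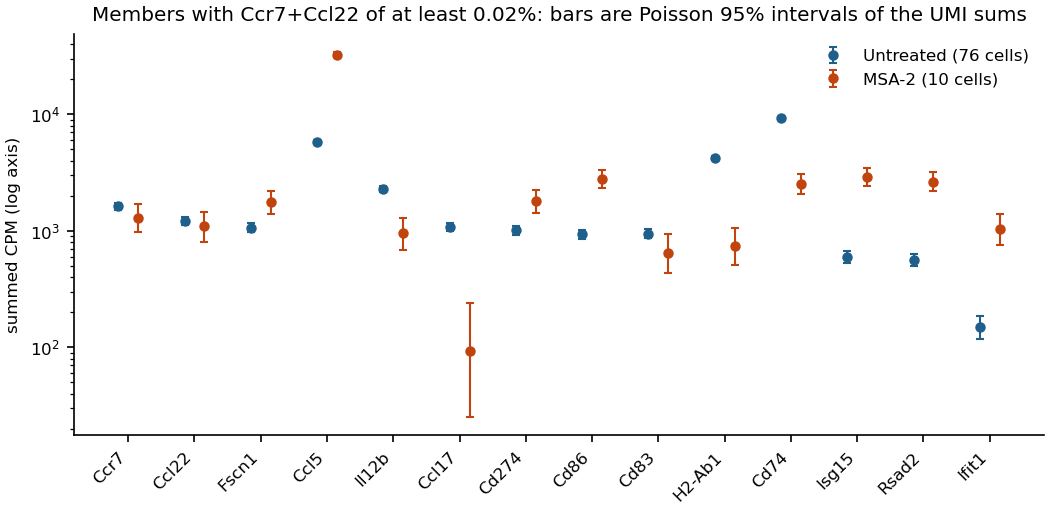
Summed CPM (log axis) of selected genes in the 76 untreated and 10 MSA-2 members above the marker level, with Poisson 95% intervals of the UMI sums, which cover counting error only. Ccl5, Isg15, Rsad2 and Ifit1 lie higher and Ccl17, Il12b, H2-Ab1 and Cd74 lower in MSA-2 members, each from 1 library.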

How the data were processed

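The deposited values are UMI counts per gene and barcode, made by the authors from 10x 3' v3.1 libraries with Cell Ranger (7.0.1 per the file headers, 7.0.0 per the processing notes, genome mm10). The 2 matrices hold 32285 features and 14386 untreated and 14617 MSA-2 barcodes. The authors' Seurat analysis (4.3.0 per the notes) was not used here, and the paper's methods give other versions of both tools. Members and gene lists were chosen with earlier results of these data known. Counts were summed per gate and compared as log2 ratios of CPM with 10 CPM added, a gene being called at 2-fold among those with at least 10 UMIs in the 2 gates together. Genes are named if they belong to the rule or to a list, are among the 15 highest or 10 lowest ratios of a comparison (at least 50 CPM in either gate and 20 UMIs together, no mitochondrial or ribosomal protein genes), or among the 15 with the largest share of library UMIs in members (at least 20 UMIs). Intervals are Clopper-Pearson, Poisson or conditional binomial. Shares of cells with a UMI use barcodes thinned to 2000 UMIs. Doublets were called per library with Scrublet (scanpy 1.11.5, 0.8% per 1000 barcodes) and kept. Promoters are from RefSeq on GRCm38.p6, gene positions from GENCODE M21. Code was tested on simulated data. Python 3.11.15, numpy 2.4.6, scipy 1.17.1, pandas 2.3.3 and matplotlib 3.10.9 were used, with edgeR 4.0.16 in R 4.3.3 for TMM factors. Alternatives were other cell filters, thresholds of the rule, removal of called doublets, scaling (TMM, equal weight per cell), added CPM, count filters, denominators and thinning depths and seeds. The 0.02% level, a required Ccl22 UMI, the groups by class II share and by subset genes, and the marker sums without Ccl5 were added after values had been seen.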

Additional observations from a re-analysis of the deposited data

How the results depend on the processing

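Each group is 1 library of pooled tumors, so no difference between untreated and MSA-2 members has a measure of tumor-to-tumor spread, and treatment, library and handling cannot be told apart. No paired analysis was possible because the groups come from different mice and each has 1 library. The comparison gates are small (37 and 26 cells), free RNA was neither measured in empty droplets nor removed, and absence of a UMI is not absence of expression. Where a cause of the following moves is not given, the cause was not tested.

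Untreated members were 65 with at least 4 UMIs of Ccl22 and Fscn1, 67 with C1q under 0.05% and 63 with a leukocyte share of at least 0.06%, which left 7 MSA-2 members. The log2 ratio of member shares was -1.07 over the C1q macrophage gate and reversed to 0.71 over the 3 dendritic gates, where the cDC1 and cDC2 gates hold 1 and 0 MSA-2 cells. Genes lower than in macrophages numbered 1030 with at least 2 Ccr7 UMIs, 1161 without the 8 deep members and 1175 with a Ccl22 UMI required. Genes lower than in cDC2 barcodes numbered 666 without the deep members, 667 with a Ccl22 UMI and 656 with equal weight per cell. With 1 CPM added, which shrinks rare genes less, higher and lower genes numbered 1406 and 696 (cDC2), 1387 and 927 (cDC1) and 1192 and 2306 (macrophages). With at least 50 UMIs, fewer genes are measured, and the counts were 289 and 143 (cDC2) and 388 and 234 (cDC1). Counts of genes and log2 ratios count as the same within 1.5-fold, and members, member ratios and shares within the 95% interval of the main value. Of log2 ratios of single genes 175 moved and 4382 stayed the same, and of list medians 26 and 790. Shares were less stable, with 33 moved and 111 the same for shares of library UMIs and 14 and 22 for shares of members with a UMI.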
